A study of Mus musculus with 4 samples.

Results

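The 42 genes described here drive or carry out cell division, from the D-type cyclins that open the cycle to the motors and checkpoint kinases of mitosis. They come from a list of names drawn up with earlier results of these data known, although no peak value enters the rule, and make up 42 of the 21938 annotated protein-coding genes. Their promoters were examined for trimethylation of lysine 4 on histone H3 (H3K4me3), measured by chromatin immunoprecipitation and sequencing in left cerebral cortex of adult mice, a tissue made mostly of cells that no longer divide. The tissue came from B6CASTF1/J females aged 2 months, an F1 cross of C57BL/6J with CAST/EiJ, and the labels named no treatment. Of the 2 biological replicates, pool J is number 1 and pool I number 2, and each combined 4 cortex biosamples and gave 2 libraries. Every library carried the same donor record. Whether the biosamples were from separate animals was not stated, and the spread between pools may therefore be technical.

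Both libraries of a pool entered 1 list of peaks, with 21573 peaks for pool J and 24508 for pool I. The list called on both pools, termed replicated by the authors, held 25446 peaks and gave the main values. How many reads went into a list was not known. A gene was called marked when a peak lay within 1000 bases of any of its annotated transcript starts. Peaks up to 1000 bases apart were joined into domains, and a gene's width was that of its widest domain in bases. The enrichment of a gene was the authors' own ratio for its strongest promoter peak, taken as fold over a control and compared only within a list. With 1 list per pool no test between pools was made, and values over pools are given as mean ± SD (n = 2).

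The division cycle starts when D-type cyclins activate the kinases Cdk4 and Cdk6, which phosphorylate the retinoblastoma protein and free E2F factors to transcribe the genes of DNA replication. Cyclin B with Cdk1 later drives entry into mitosis. In resting cells the DREAM complex holds replication and mitotic genes silent through E2F sites and through the cell cycle genes homology region (CHR), a short element that often lies downstream of CCAAT boxes. H3K4me3 is laid down at CpG-rich promoters and is found at active genes as well as at genes that are poised or weakly transcribed. Most cortical neurons leave the cycle before birth, whereas oligodendrocyte precursors and some other glial and vascular cells can still divide in the adult cortex.

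Every one of the 42 genes was marked in all 3 lists. The background was high: 65.2% of protein-coding genes were marked in the replicated list. The share was 63.9% in pool J and 64.8% in pool I. With peaks below a −log10 q of 10 left out, 42 of 42 genes remained marked, against 62.3% of all genes. The weakest of the genes, Ccnb2 (cyclin B2), had a −log10 q of 22.2 in the replicated list. It was 13.5 in pool J and 21.6 in pool I. Mki67, the source of the Ki-67 proliferation antigen, and Top2a, the topoisomerase that untangles replicated chromosomes, are widely used as marks of dividing cells. In the replicated list Mki67 had a domain of 1563 bases at chr7:135715641-135717203 (mm10), and Top2a one of 1121 bases at chr11:99023743-99024863.

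The count of marked genes has to be read against promoter sequence. The observed-to-expected CpG ratio, computed over 1000 bases either side of the 5′-most start, had a median of 0.631 over the 42 genes and ranged from 0.328 at Ccnd3 to 0.872 at Ccne2. It was 0.605 over all marked genes and 0.474 over all protein-coding genes. For Ccnd3 the ratio is that of a 5′-most start at chr17:47505051, outside its widest domain (chr17:47593049-47595598). When all genes were split into 10 equal groups by the ratio, 41 of the 42, all but Ccnd3, fell in groups 5 to 10. In those groups the marked share of all genes ran from 81.6% in group 5 to 98.7% in group 10, so most genes with such promoters were marked.

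Promoter sequences of the cell cycle genes were searched for the letters of 3 elements, on both strands, from 250 bases before to 50 bases after the start in RefSeq (GRCm38.p6). The elements were the CCAAT box (CCAAT), a CHR-type element (TTTGAA, with TTTAAA also taken) and an E2F core (the letters TTCCCGC and TTGGCGC, and also TTCGCGC and TTGCCGC). The table held 34 of the 42 genes, and 16505 protein-coding genes in all. It did not hold Ccnd1, Ccnd2, Ccne2, Mcm4, Ccna2, Cdc25c, Foxm1 and Aurkb. A match is a description of letters and not of a bound site. The CCAAT box and the E2F core TTGGCGC overlap by 4 letters when read on opposite strands, so 1 stretch can count for both.

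The following promoters show the widest domain with an entry (Cdk6), a licensing gene (Mcm5), the mitotic kinase pair (Cdk1 and Ccnb1), the least enriched gene (Ccnb2) and the narrowest (Bub1b). Cdk6 and Ccnb2 were added after their values were seen. Each runs 5′ to 3′ along the gene, 300 bases, with matches to any of the 3 elements in capitals.
Cdk6: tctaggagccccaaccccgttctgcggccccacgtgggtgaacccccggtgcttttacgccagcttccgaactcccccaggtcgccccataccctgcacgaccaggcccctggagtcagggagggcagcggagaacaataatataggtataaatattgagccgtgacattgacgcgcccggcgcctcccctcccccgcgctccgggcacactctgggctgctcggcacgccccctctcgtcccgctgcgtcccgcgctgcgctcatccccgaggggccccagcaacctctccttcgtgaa
Mcm5: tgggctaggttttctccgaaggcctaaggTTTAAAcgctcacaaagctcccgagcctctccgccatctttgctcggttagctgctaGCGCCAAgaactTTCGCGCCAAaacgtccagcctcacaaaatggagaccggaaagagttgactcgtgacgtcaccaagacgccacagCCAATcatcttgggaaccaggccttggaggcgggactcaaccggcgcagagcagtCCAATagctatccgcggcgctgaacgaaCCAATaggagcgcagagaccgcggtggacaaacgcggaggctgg
Cdk1: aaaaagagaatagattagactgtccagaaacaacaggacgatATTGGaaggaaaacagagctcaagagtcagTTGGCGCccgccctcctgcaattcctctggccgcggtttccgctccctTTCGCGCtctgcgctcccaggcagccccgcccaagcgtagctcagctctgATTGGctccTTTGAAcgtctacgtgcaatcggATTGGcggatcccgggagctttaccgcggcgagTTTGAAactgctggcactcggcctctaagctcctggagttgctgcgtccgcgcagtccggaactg
Ccnb1: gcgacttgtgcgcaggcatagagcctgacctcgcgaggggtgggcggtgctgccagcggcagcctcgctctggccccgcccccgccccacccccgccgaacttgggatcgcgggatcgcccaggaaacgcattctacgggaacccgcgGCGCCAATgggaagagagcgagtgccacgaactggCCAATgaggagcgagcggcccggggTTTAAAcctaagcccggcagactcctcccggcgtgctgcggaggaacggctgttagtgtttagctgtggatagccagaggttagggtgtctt
Ccnb2: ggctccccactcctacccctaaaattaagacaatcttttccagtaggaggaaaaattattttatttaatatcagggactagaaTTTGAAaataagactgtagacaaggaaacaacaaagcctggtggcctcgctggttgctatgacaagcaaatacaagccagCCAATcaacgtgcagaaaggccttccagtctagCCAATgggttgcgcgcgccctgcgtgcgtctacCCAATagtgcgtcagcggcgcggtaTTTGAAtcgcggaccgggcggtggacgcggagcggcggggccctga
Bub1b: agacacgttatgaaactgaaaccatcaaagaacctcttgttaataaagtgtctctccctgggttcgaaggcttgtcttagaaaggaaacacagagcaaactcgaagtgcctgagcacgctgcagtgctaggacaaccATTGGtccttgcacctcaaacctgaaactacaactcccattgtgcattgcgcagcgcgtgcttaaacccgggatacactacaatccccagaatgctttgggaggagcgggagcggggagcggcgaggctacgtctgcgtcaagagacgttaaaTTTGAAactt

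The Cdk6 promoter, chr5:3343643-3343942 on the plus strand, held none of the 3 elements. This window belongs to an internal start, 2408 bases from the 5′-most start used for reach and CpG ratio and 2305 bases from the summit. The Mcm5 promoter, chr8:75109259-75109558 on the plus strand, held 3 E2F cores and 3 CCAAT boxes, and 1 TTTAAA. Its RefSeq start lay 60 bases from the nearest GENCODE start. The Cdk1 promoter, chr10:69352863-69353162 on the minus strand, held 3 CCAAT boxes, all on the opposite strand, and TTTGAA at 71 and 15 bases before the start. It also held 2 E2F cores, at 178 and 130 bases before the start. The Ccnb1 promoter, chr13:100786437-100786736 on the minus strand, held CCAAT boxes at 99 and 67 bases before the start and TTTAAA at 42 bases before it. Its only E2F core, at 102 bases before the start, overlapped the first CCAAT box.

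The Ccnb2 promoter, chr9:70421505-70421804 on the minus strand, held CCAAT boxes at 87, 54 and 21 bases before the start and TTTGAA at 167 bases before the start and 4 bases after it. It held no E2F core. Its peak was the weakest of the 42 genes, but Ccne1, the most enriched of them, held no E2F core in its window either. In Bub1b, chr2:118597961-118598260 on the plus strand, 1 CCAAT box lay on the opposite strand and TTTGAA began 40 bases after the start. Of its 300 bases only 59 lay inside the replicated domain, whereas the other 5 windows lay inside their domains in full.

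The letters found differed between the roles. Of the 15 G2/M and mitotic genes with an entry, 14 held a CCAAT box, 13 a CHR-type element and 12 both, while 3 held an E2F core. Of the 16 G1/S, licensing and synthesis genes, 11 held a CCAAT box, 5 a CHR-type element and 4 both, while 10 held an E2F core. The licensing genes alone had an E2F core in 6 of 7 promoters, with 5 matches in Mcm6. The 3 G1 genes with an entry, Ccnd3, Cdk4 and Cdk6, held none of the elements. In the longer window from 500 bases before to 100 after the start, 2 of these 3 held a CHR-type element. There a CHR-type element stood in 10 of the 16 G1/S, licensing and synthesis genes and in 14 of the 15 G2/M and mitotic genes, and an E2F core in 13 and 4. A CCAAT box was about as frequent in both sets in that window, in 14 of 16 and 14 of 15. CCAAT with CHR stood in 9 of 16 and 13 of 15.

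Over the 34 genes, 25 held a CCAAT box (73.5%) against 38.8% of all promoters. A CHR-type element stood in 18 of 34 (52.9%) against 24.5%, an E2F core in 13 of 34 (38.2%) against 12.6%, and CCAAT with CHR in 16 of 34 (47.1%) against 9.92%. Among marked genes alone the shares were 38.3%, 18.3%, 17.4% and 7.35%. Of the 34 RefSeq starts, 3 (those of E2f1, Mcm5 and Pcna) had no GENCODE start within 50 bases. E2f1 held no match in a window whose start lay 294 bases from the nearest GENCODE start.

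The domains of the cell cycle genes were narrow. Their median width was 1438.5 bases in the replicated list, against 2124 bases for all marked genes. In pool J the medians were 1388 and 2026 bases, and in pool I they were 1467.5 and 2193.5 bases. As a mean over pools the median was 1428 ± 56.2 bases (SD, n = 2) for the cell cycle genes and 2109.8 ± 118 bases for all marked genes. The gap was larger than the spread between pools, which is not the spread between genes. In the replicated list the quartiles were 1204.75 and 1827.25 bases for the cell cycle genes. They were 1537 and 2966 bases for all marked genes, so the ranges overlapped. Of the 42 genes, 35 were narrower than the median of all marked genes, where the background was 50%. The narrowest 25% of marked genes held 24 of them and the widest 25% held 3, against a background of 25% each.

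Their peaks were also of modest height. In the replicated list the median enrichment was 17.3 for the cell cycle genes and 20.8 for all marked genes. It was 17.5 and 20.6 in pool J, and 17.7 and 20.8 in pool I. The lowest 25% of marked genes by enrichment held 16 of the 42 genes and the highest 25% held 0, against a background of 25% each. The highest enrichment was 24.8 at Ccne1, which encodes cyclin E1, and the lowest was 5.51 at Ccnb2. Across the 42 genes, width and enrichment had a Spearman's rho of 0.50 (n = 42 genes, which share libraries and are not independent), and across all marked genes it was 0.41 (n = 14293).

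**Figure D1:**
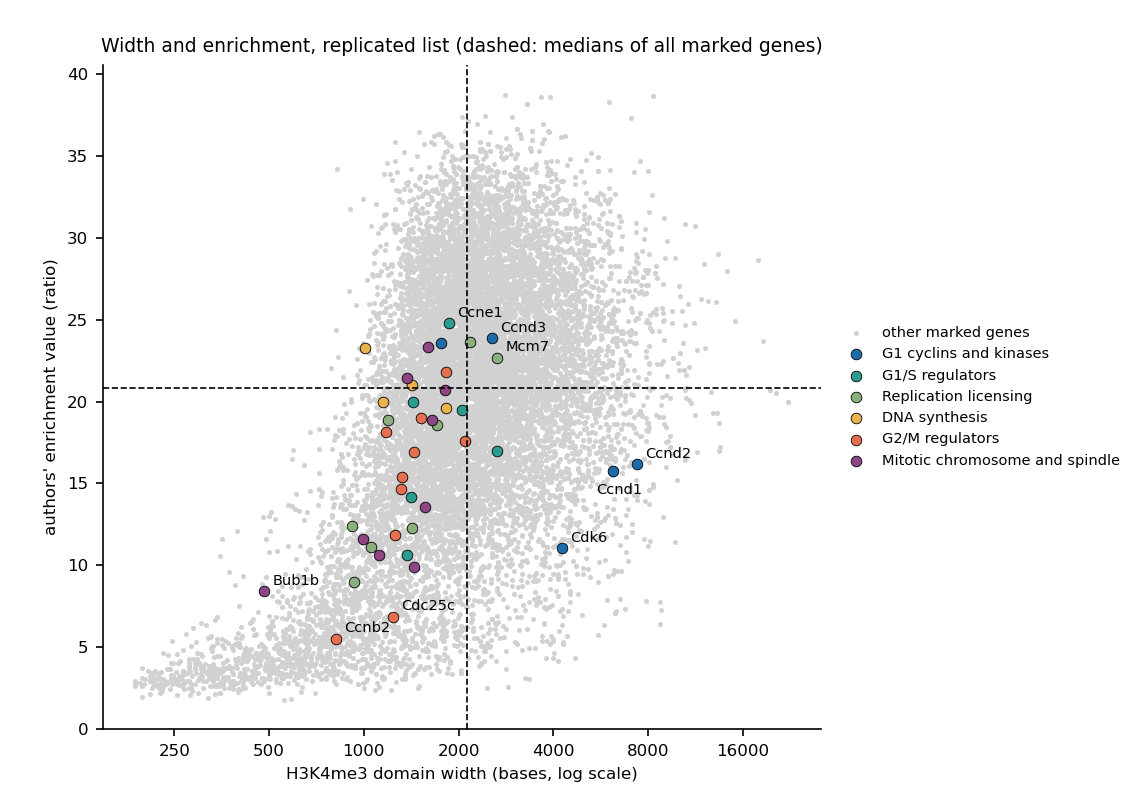
Width of the promoter domain (bases, log scale) against the authors' enrichment ratio for marked genes of the replicated list. Grey points are other marked genes and coloured points the 42 cell cycle genes by role, of which 35 lie left of the vertical dashed line (median of all marked genes, 2124 bases) and 32 below the horizontal one (20.8).

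The G1 cyclins and kinases were the exception to the narrow pattern. Their median width was 4256 bases, and 3 of the 5 lay in the widest 25% of marked genes. It was 4299 bases in pool I but 2483 bases in pool J, where 2 of the 5 lay in the widest 25%. Ccnd2, which encodes cyclin D2, had the widest domain of the 42 genes, 7363 bases at chr6:127148470-127155832. It measured 7348 bases in pool J and 7391 bases in pool I (7369.5 ± 30.4, SD, n = 2), so the pools nearly coincided. This domain also held the start of the noncoding gene 9330179D12Rik. It reached 3639 bases upstream and 3723 bases downstream of the 5′-most start of Ccnd2. Its enrichment was 16.2 in the replicated list and 17.5 in pool J, both below the median of all marked genes, but 21.4 in pool I, above that list's median.

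Ccnd1, which encodes cyclin D1, had a domain of 6191 bases at chr7:144937602-144943792. Its width was 2483 bases in pool J and 6194 bases in pool I (4338.5 ± 2624, SD, n = 2), so the pools disagreed. In each list 2 peaks stood in this region, one over the start and one upstream of it. The gap between them was 476 bases in the replicated list, 336 bases in pool I and 1171 bases in pool J, and only gaps up to 1000 bases were joined. The upstream peak itself was 2634 bases wide in pool J and 2741 bases in pool I. Ccnd1 and Ccnd2 were the only ones of the 42 genes among the widest 5% of marked genes in the replicated list, above 5166.4 bases, where the background was 5%. In pool I both passed as well (background 5.01%), in pool J only Ccnd2 did (background 5%), and neither passed when only touching peaks were joined.

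Cdk6, the partner kinase of the D-type cyclins, had a domain of 4129 bases in pool J and 4299 bases in pool I (4214 ± 120, SD, n = 2). Its enrichment was 11.0 in the replicated list and 11.9 in pool I, but 18.6 in pool J, and all 3 values lay below the median of all marked genes of their list. Ccnd3 measured 2371 and 2728 bases, and Cdk4 1810 and 1697 bases, in pools J and I. Cdk4, the sister kinase of Cdk6, was thus below the median of all marked genes in both pools, while Cdk6 was above it in both.

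**Figure D2:**
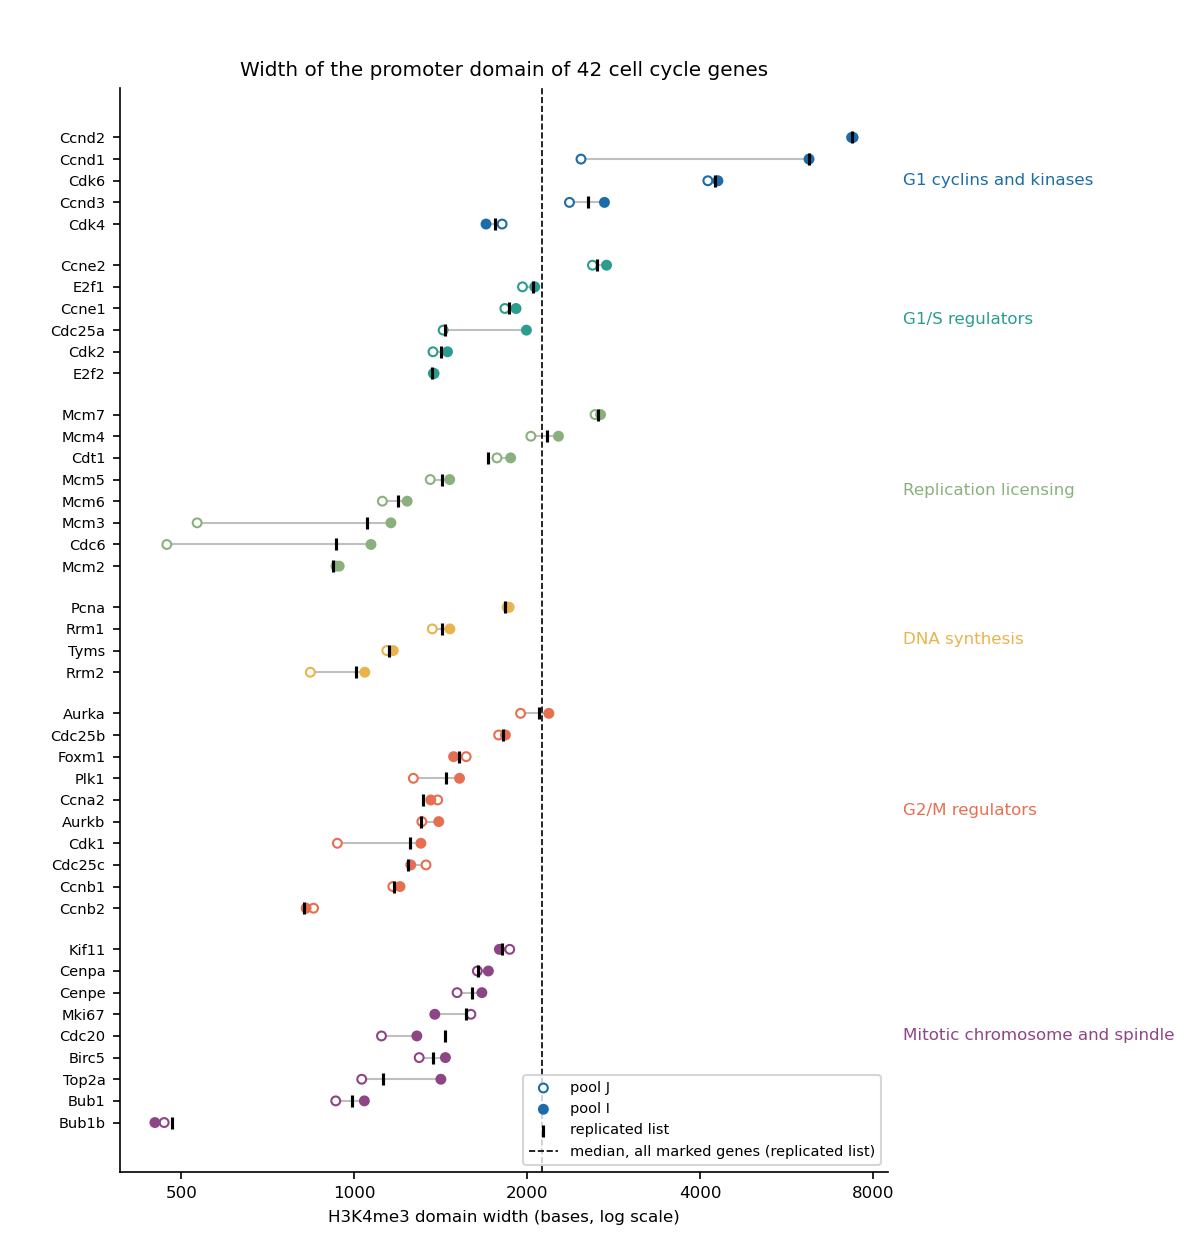
Width of the promoter domain of each of the 42 genes (bases, log scale), grouped by role. Open points are pool J, filled points pool I, black ticks the replicated list and the dashed line the median of all marked genes there (2124 bases), which the ticks of 7 genes pass, among them Ccnd2, Ccnd1 and Cdk6.

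The regulators of the G1 to S transition had a median width of 1649.5 bases, with 18.2 as the median of enrichment. Ccne2 (cyclin E2) was the widest of them with 2600 bases in pool J and 2751 bases in pool I. E2f1, the activating E2F factor, measured 1964 and 2063 bases, and Ccne1 measured 1830 and 1914 bases. These 3 genes kept their order in both pools, and only Ccne2 passed the median of all marked genes. Cdk2, the kinase bound by cyclin E, measured 1372 and 1454 bases, and E2f2, a relative of E2f1, 1378 and 1374 bases. Cdc25a, the phosphatase that activates Cdk2, differed more, with 1429 bases in pool J and 1995 bases in pool I.

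The replication licensing genes, which load the MCM helicase on origins of replication, had a median width of 1306.5 bases, with 15.5 as the median of enrichment. Of the helicase subunits, Mcm2 measured 930 and 942 bases in pools J and I (936 ± 8.49, SD, n = 2). Mcm6 measured 1120 and 1237 bases, and Mcm5 1357 and 1467 bases. Mcm4 and Mcm7 were wider, with 2031 and 2269 bases and with 2627 and 2686 bases. Both lay in a domain that held the start of a neighbour, Prkdc for Mcm4 and Ap4m1 for Mcm7. The other 6 licensing genes were all narrower than the median of all marked genes in each of the 3 lists.

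Mcm3 and Cdc6 were much narrower in pool J than in pool I. Mcm3 measured 533 bases in pool J and 1159 bases in pool I, where a second peak of 307 bases stood 122 bases away. That second peak was listed in the replicated list with a −log10 q of 11.6, and no such peak was listed in pool J. Cdc6, the loader of the helicase, measured 472 bases in pool J and 1070 bases in pool I. Cdt1, its partner in loading, measured 1773 and 1873 bases.

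The 4 genes of DNA synthesis had narrow domains, with a median width of 1287 bases. The median of enrichment was 20.5 in the replicated list. In pool J it was 18.4, with 4 of 4 below the median of all marked genes, and in pool I 22.2, with 0 of 4 below. Rrm2, the regulated subunit of the reductase that makes deoxyribonucleotides, measured 839 bases in pool J and 1044 bases in pool I. Its enrichment was 23.3 in the replicated list and 24.5 in pool I, above the median of all marked genes, and 20.5 in pool J, just below it. Rrm1, the other subunit, measured 1368 and 1468 bases, and Tyms, the thymidylate synthase, 1140 and 1170 bases. Pcna, the sliding clamp of DNA polymerase, measured 1862 and 1847 bases and was the widest of the 4, and its domain also held the start of the noncoding gene AV099323.

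All 19 genes of G2/M control and of mitosis were narrower than the median of all marked genes, in the replicated list and in both pools. Ccnb1 and Cdk1 together form the kinase that triggers mitosis. Ccnb1 measured 1168 and 1202 bases in pools J and I (1185 ± 24.0, SD, n = 2), and Cdk1 935 and 1307 bases (1121 ± 263). Ccnb2 measured 850 and 825 bases, with enrichments of 4.60 in pool J and 5.75 in pool I that were the lowest of the 42 genes in either list. Ccna2 (cyclin A2) measured 1398 and 1360 bases. These cyclin and kinase promoters were all below the median in both pools.

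The phosphatases, the other kinases and the factor Foxm1 lay between 1240 and 2095 bases in the replicated list. Cdc25c measured 1334 bases in pool J and 1255 bases in pool I, with an enrichment of 6.87 in the replicated list. Its domain also held the start of the noncoding gene 2010110K18Rik. The strongest peak of Cdc25c covered none of its own starts, whereas that of 41 of the 42 genes covered one. Plk1, a kinase of mitotic entry and spindle assembly, measured 1268 and 1526 bases in a domain that also held the start of the noncoding gene Gm15489. Aurkb, a kinase of chromosome attachment, measured 1312 and 1404 bases. Foxm1, which activates many G2/M genes, measured 1567 and 1490 bases, Cdc25b, an activator of Cdk1, 1785 and 1834 bases, and Aurka, a centrosomal kinase, 1949 and 2183 bases. Those last 3 shared their domain with the start of another coding gene.

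The mitotic chromosome and spindle genes had a median width of 1440 bases, with 13.5 as the median of enrichment. Bub1b, which encodes the checkpoint protein BubR1, had the narrowest domain of the 42 genes, 467 bases in pool J and 450 bases in pool I (458.5 ± 12.02, SD, n = 2). Its replicated domain of 482 bases, chr2:118598202-118598683, began 9 bases upstream of the start and ended 472 bases downstream. Bub1, its relative in the checkpoint, measured 929 and 1042 bases. Cdc20, which activates the anaphase-promoting complex, measured 1116 and 1286 bases, and Top2a 1031 and 1416 bases. Mki67 measured 1597 bases in pool J and 1382 bases in pool I.

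The remaining mitotic genes were wider than Bub1b and Bub1. Birc5, which encodes survivin, measured 1298 and 1442 bases in pools J and I, and Cenpe, a kinetochore motor, 1511 and 1669 bases. Cenpa, the centromeric histone, measured 1639 and 1713 bases, and Kif11, the motor that separates spindle poles, 1866 and 1790 bases. No mitotic gene reached the median of all marked genes, the widest being Kif11 with 1806 bases in the replicated list.

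The difference in width lay downstream of the start. For this comparison a gene had to have a domain with no other coding start and with its own 5′-most start inside, which left 35 of the 42 genes and 9463 of all marked genes. Domains of the cell cycle genes reached a median of 621 bases upstream and 718 bases downstream of that start. Domains of all such genes reached a median of 560 bases upstream and 1411 bases downstream. A reach of over 1000 bases downstream was seen in 10 of 35 cell cycle genes (28.6%) against a background of 75%. Of the 10, 4 were G1 cyclins and kinases and 4 were G1/S regulators, and the others were Pcna and Cenpa. In pool J it was 8 of 34 genes (background 71.8%), and in pool I 11 of 35 (background 76.9%). From the start nearest the summit it was 6 of 36 (background 66.5%).

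A domain that reached further downstream than upstream was seen in 20 of 35 cell cycle genes (57.1%) against a background of 93.4%. By role this was 5 of 5 G1/S regulators and 4 of 4 genes of DNA synthesis, but 3 of 7 G2/M regulators and 2 of 9 mitotic genes. For G2/M regulators the count was 5 of 7 in pool J and 4 of 7 in pool I. From the start nearest the summit, G1/S regulators stayed at 5 of 5, whereas DNA synthesis came to 2 of 4, G2/M regulators to 2 of 7 and mitotic genes to 1 of 9. Birc5 reached 1035 bases upstream and 335 downstream, Cdc20 reached 925 and 514, and Top2a reached 674 and 446. In pool J 23 of 34 genes reached further downstream (67.6%, background 93%), and in pool I 21 of 35 did (60%, background 93.4%). Measured from the start nearest the summit in place of the 5′-most start, the count was 14 of 36 (38.9%, background 84.7%). The summit, the highest point of the strongest peak, lay downstream of the 5′-most start in 27 of 35 cell cycle genes (77.1%) and in 92.3% of all such genes.

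**Figure D3:**
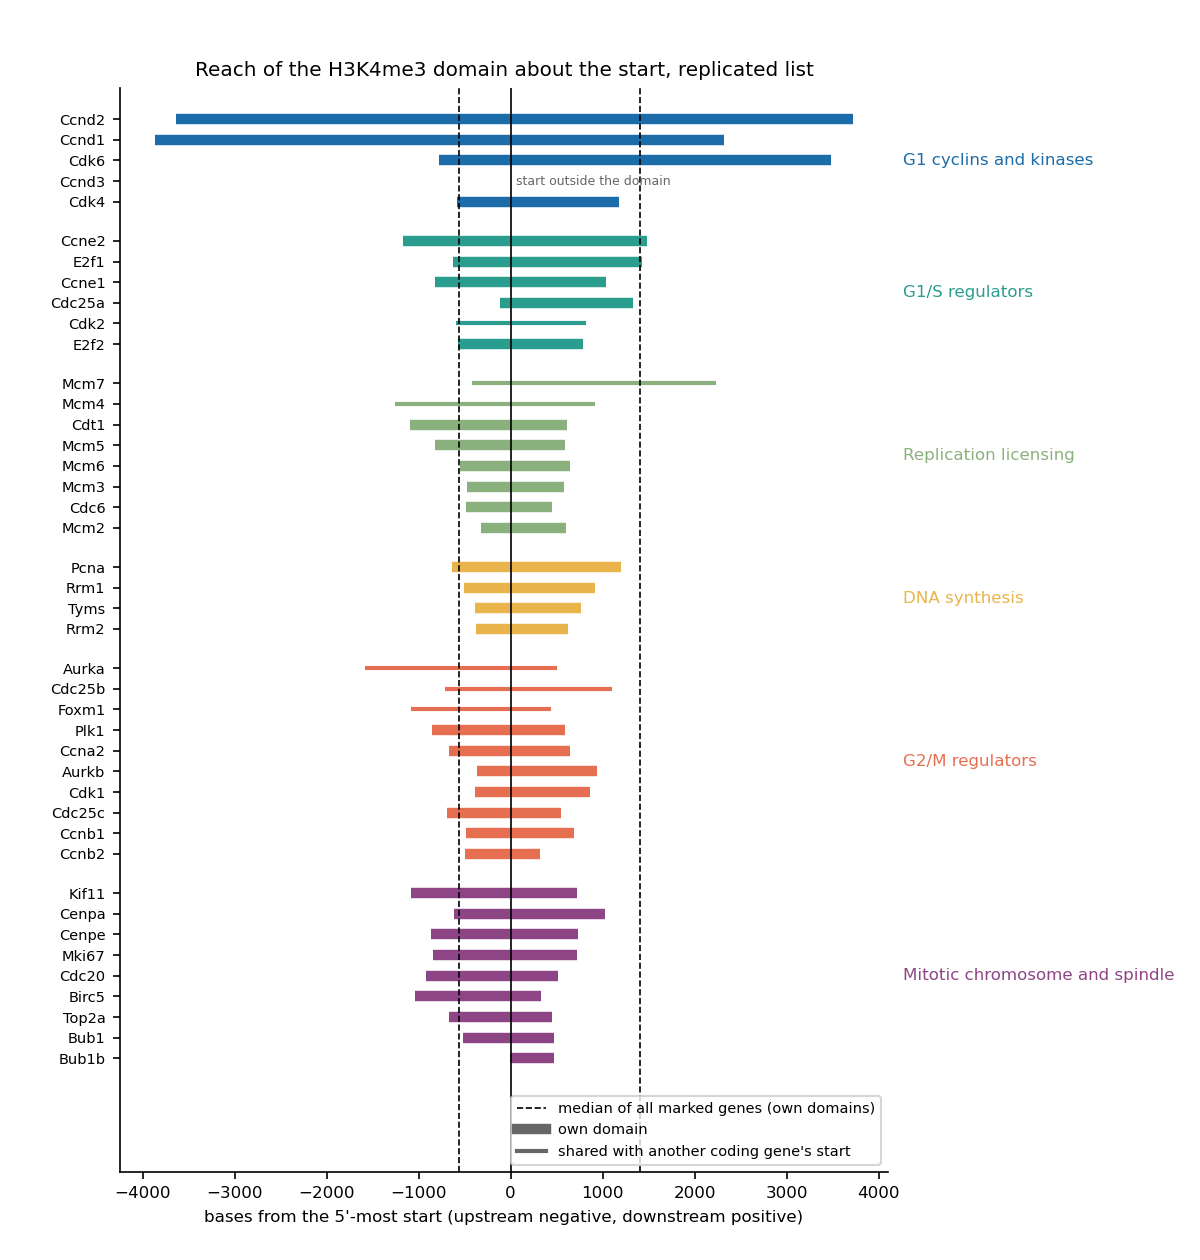
Reach of each gene's replicated domain about its 5′-most start, in bases (upstream negative, downstream positive), by role. Thick bars are domains with no other coding start, thin bars shared ones and dashed lines the medians of all marked genes with their own domain (560 bases upstream, 1411 downstream); of the thick bars only Ccnd1, Ccnd2, Cdk6, Ccne2 and E2f1 pass the right-hand line.

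Most of the domains were not shared, which also held for all marked genes. Of the 42 genes, 36 (85.7%) had a domain with no start of another coding gene, where the background was 79.7%. Those 36 had a median width of 1422.5 bases, and all marked genes with their own domain had one of 2001 bases. The 6 shared domains were those of Cdk2 with Pmel, Mcm4 with Prkdc, Mcm7 with Ap4m1, Cdc25b with Spef1, Foxm1 with Rhno1 and Aurka with Cstf1. A shared peak cannot be assigned to 1 gene. The shared domains had a median of 1957 bases, and those of all marked genes 2436 bases.

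CpG content was not low at these promoters, so each gene was set beside marked genes of its own CpG group. For Ccnd3 the group is that of a start outside the domain whose width was compared. In the replicated list 36 of the 42 were narrower than their group's median (background 49.9%), and 32 were less enriched (background 50%). In group 10, the most CpG-rich, 6 of 6 cell cycle genes were narrower, with a median of 1664.5 bases against 2830 bases for all marked genes. In group 8 it was 9 of 10, with 1367 against 2238 bases. Across the 42 genes width and CpG ratio had a Spearman's rho of 0.22 (n = 42), and across all marked genes 0.40 (n = 14293), both given as descriptions over genes of the same libraries.

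**Figure D4:**
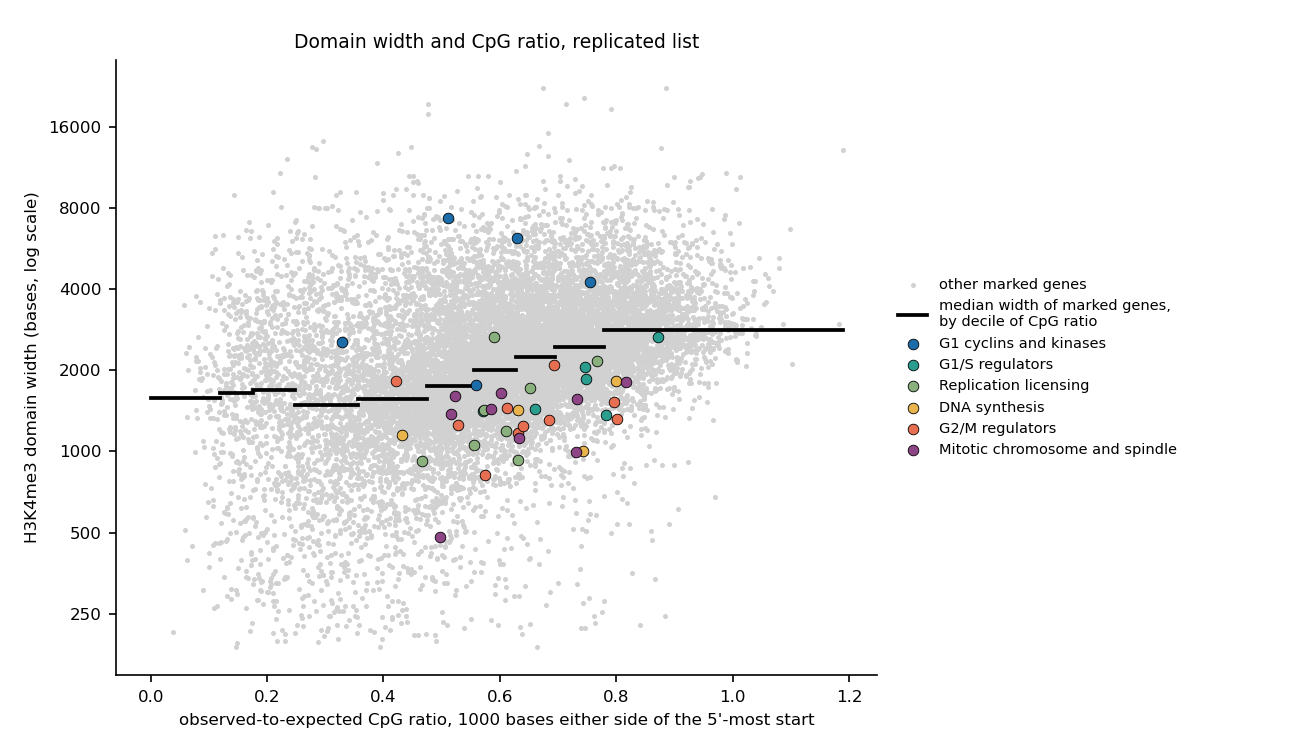
Domain width (bases, log scale) against the observed-to-expected CpG ratio around the 5′-most start for marked genes of the replicated list. Grey points are other marked genes, black bars the median width in each of 10 CpG groups and coloured points the 42 cell cycle genes by role, of which 36 lie below their group's bar.

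Other genes of the cell cycle, in 7 further lists, were marked in 143 of 143 cases. This held in the replicated list (background 65.2%), pool J (background 63.9%) and pool I (background 64.8%). The median over these genes was 1699 bases for width and 21.3 for enrichment. Of the 143, 98 were narrower and 70 less enriched than the median of all marked genes. The background was 50% for each, so the count for enrichment lay near it. The replication factors, such as the origin recognition complex and the polymerases, had a median of 1671.5 bases (40 of 40 marked, background 65.2%). The kinetochore and checkpoint genes had one of 1374 bases (24 of 24), and the mitotic motors and cytokinesis genes 1238 bases (21 of 21). The G2/M and mitotic genes among the 42 had a median of 1371 bases, near that of the kinetochore list and below that of the replication factors. Kif22 (4996 bases) and Cit (4740 bases) were the widest motors, and Zwint the widest kinetochore gene. The domain of Kif22 also held the start of Maz, another coding gene. Zwint measured 4274 bases in the replicated list and 4262 bases in pool I, but 2627 bases in pool J.

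The following lists had wider medians than the replication factor, kinetochore and motor lists. The median of all marked genes, 2124 bases, lay above that of the anaphase-promoting complex and that of the RB, E2F and DREAM genes. Condensin and cohesin genes had a median of 2193 bases, with Stag2 (5042 bases) and Ncapd3 (4136 bases) widest. Ncapd3 shared its domain with the start of the coding gene Vps26b. The anaphase-promoting complex had one of 1997.5 bases, and the RB, E2F and DREAM genes one of 2085.5 bases, with E2f3 (4462 bases) widest. Rbbp4 came next with 3956 bases in the replicated list, but measured 2806 bases in pool J and 2788 bases in pool I. It shared its replicated domain with the start of the coding gene Zbtb8os. Within that last list Mybl2, whose protein joins core subunits of DREAM once cells enter the cycle, was narrowest with 1007 bases. CDKs and cyclins with roles outside the division cycle had a median of 3405 bases over 22 genes, 22 of them marked (background 65.2%). The narrowest of them were Ccnh with 1445 bases and Cdk7 with 1741 bases, whose products also act within the division cycle. Cdk5r1, the neuronal activator of Cdk5, was widest of the 22 genes with 8460 bases, followed by Cdk17 with 6617 bases.

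The inhibitors of the cyclin-dependent kinases, which hold cells out of the cycle, had a median of 2626 bases, and 7 of 7 were marked (background 65.2%). Their median was 2621 bases in pool J and 2221 bases in pool I, where that of all marked genes was 2193.5 bases. Cdkn1b (p27) had 3352 bases and Cdkn2c 3038 bases, Cdkn1a (p21) 2626 bases and Cdkn1c 2605 bases. Cdkn2a and Cdkn2b, genes of 1 locus on chromosome 4, were narrower with 1464 and 1420 bases. Cdkn2d (p19) was listed with 5182 bases in the replicated list, but measured 5039 bases in pool J and 2221 bases in pool I, and shared its domain with Kri1. Of 4 paralogs known from germline and ciliated cells, Ccna1 (1151 bases) and Ccno (1935 bases) were marked, and Ccnb3 and Aurkc were not marked in any of the 3 lists.

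**Figure D5:**
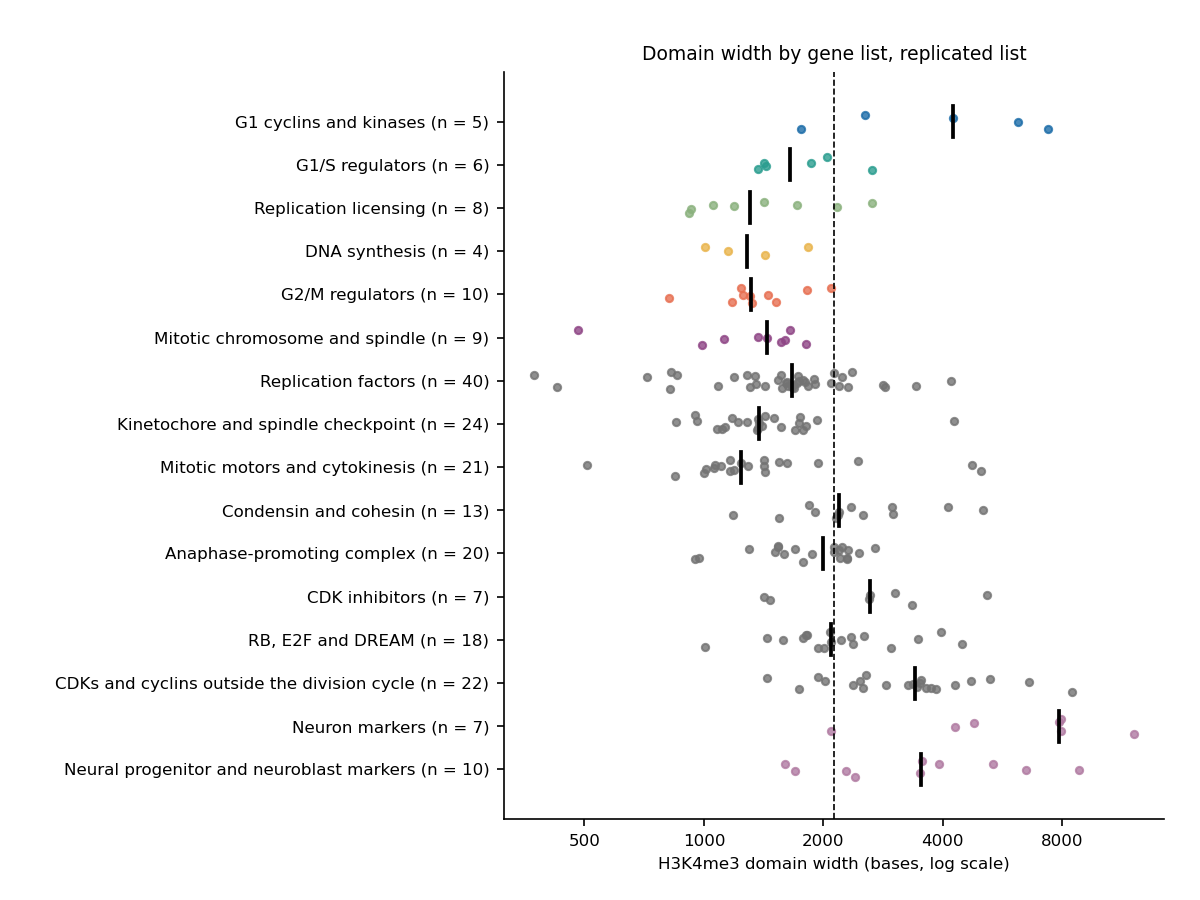
Domain width of marked genes (bases, log scale) in the replicated list for the 6 roles of the 42 genes (coloured), 8 further lists of cell cycle and related genes (grey) and 2 lists of marker genes (mauve). Each point is a gene, black bars are list medians and the dashed line is the median of all marked genes (2124 bases), left of the bars of the neuron markers (7858 bases) and right of those of the mitotic motors (1238 bases).

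The tissue held several cell types, and a mark in few cells cannot be told apart in these bulk samples from a weak mark in many. The marked counts below stand against a background of 65.2% of all protein-coding genes. Over lists this short, a share near that background does not set a cell type apart. Neuron markers were marked in 7 of 7 cases with a median width of 7858 bases in the replicated list. That median was 5668 bases in pool J and 7878 bases in pool I. Neural progenitor and neuroblast markers were marked in 10 of 10 cases, and Sox2 was the widest with 8799 bases. Their median width was 3527 bases at a median enrichment of 9.72 in the replicated list. It was 2551.5 bases in pool J and 3436.5 bases in pool I. Oligodendrocyte precursor markers, not all of them confined to dividing cells, were marked in 5 of 7 cases (71.4%), near the background. Their median enrichment was 5.38, and Gpr17 and Neu4 were unmarked. Astrocyte markers were marked in 4 of 5 cases, with Gfap unmarked, and endothelial markers in 5 of 5. Microglia markers were marked in 3 of 6 cases in the replicated list, and in 0 and 2 cases in pools J and I, with C1qa and C1qc unmarked in all 3. How much such cells contribute to the marks of the 42 genes was not tested.

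The 42 genes varied between pools about as all genes did. The domain was wider in pool I for 32 of them and wider in pool J for 10, and it was wider in pool I for 76.6% of all genes marked in both pools. Divided by its width in pool J, the width in pool I had a median of 1.06 for the cell cycle genes and 1.07 for all genes marked in both. A difference of over 1.5-fold was found in 3 of 42, namely Ccnd1, Cdc6 and Mcm3, against a background of 4.79%. Between the pools the widths of the 42 genes had a Spearman's rho of 0.94 and their enrichments one of 0.79 (n = 42 genes, descriptions).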

How the data were processed

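H3K4me3 peaks were deposited by the authors as 4 narrowPeak lists on mm10, per the labels and the text files deposited with the libraries: 1 for each pool, 1 on pooled reads and 1 termed replicated. Each list went to the pool that those texts name. No source used here gives the aligner, peak caller, control or read numbers, so depth is unknown. The authors' enrichment per peak is a ratio, taken as fold over a control, and served only within a list. The −log10 q of each peak is the authors' value as deposited and served as a filter in alternatives. In the replicated list 361 of 25446 peaks had a q over 0.05.

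Peaks were assigned to starts of GENCODE M21 (21938 protein-coding genes, mitochondrial genes left out) by an overlap of at least 1 base with the window of 1000 bases either side. Coordinates are counted from 1. Promoter sequences are from RefSeq. Values are counts and medians beside all marked protein-coding genes, with no test, since genes are not replicates. The genes and the lists were chosen with earlier results of these data known. All 42 genes and all 7 CDK inhibitors were to be named, and of every other list the genes without a peak (the first 3 where over 5) and the 2 widest. Sequences were to be those of the widest and the narrowest gene, Cdk1, Ccnb1, Mcm5 and E2f1. Ccnd2 has no entry, and E2f1 is left out for the distance of its start. The result of 1 further marker list is not reported here. Mybl2, Ccnh, Cdk7 and the measure of reach about the start were chosen after values were seen. The assignment was checked on simulated peaks. Python 3.11.15, pandas 2.3.3, pysam 0.24.0 and matplotlib 3.10.9 were used.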

Additional observations from a re-analysis of the deposited data

How the results depend on the processing

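The count of 42 marked genes was the same in 11 of 11 settings, which varied the window, the starts used, the q filter, the list and the overlap. The median width of the 42 genes was below that of all marked genes in 14 of 14 settings, and the median enrichment in 12 of 12. Without pool J or without pool I, the median enrichment was 17.7 and 17.5, the median width 1467.5 and 1388, and the number of genes among the widest 5% was 2 and 1. The median enrichment was 16.97 with the 5′-most start alone. It was 16.5 over genes with their own domain and 17.9 without the D-type cyclins and Cdk6, both chosen after seeing the data. The number among the widest 5% was 0 with touching peaks alone joined and 4 with peaks up to 2500 bases apart joined, so it depends on how peaks are joined. The median reach downstream, also chosen after seeing the data, was 718 bases from the 5′-most start, 647.5 from the start nearest the summit and 715 and 739 without pool J and without pool I, against 1411, 1260, 1455 and 1324 for all such genes. With 500 bases before to 100 after the start, 28, 26 and 17 of 34 promoters held a CCAAT box, a CHR-type element and an E2F core, against 57.6%, 47.9% and 19.1% of all promoters. No paired analysis was possible because the results come from no test and each pool gave 1 list. Depth is unknown, so a gene without a peak may be below detection.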
